A study of Danio rerio with 4 samples.

Results

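Zebrafish embryos of ybx1 mutant mothers (Mybx1) were compared with wild-type embryos (WT) at 6 hours post fertilisation (hpf). Total RNA from which ribosomal RNA had been removed was sequenced. In normal development 6 hpf is the onset of gastrulation. Whether the Mybx1 embryos had reached the same stage as the WT embryos was not tested. A gene was counted when its mean over both 6 hpf libraries was at least 1 FPKM (reads scaled to the length of the gene and the size of the library), which kept 15790 of 31870 gene identifiers. The series holds 4 libraries of whole embryos, WT and Mybx1 at 0 hpf and WT and Mybx1 at 6 hpf, with 1 library in each group and hence no replicate check of any difference. The labels call the mutation maternal and give no allele. Strain, genotype of the father, number of embryos and number of clutches in a library are not given in the sources used here.

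At fertilisation an embryo carries RNA made by its mother in the oocyte, and its own genome is silent. In the maternal-to-zygotic transition this maternal RNA is removed, by factors supplied with the egg and by products of the embryo's own genes, and transcription of the zygotic genome takes over the building of germ layers. Ybx1 is a cold-shock domain protein that binds mRNA in the egg and represses the translation of bound messages, among them transcripts of Nodal signalling in zebrafish. The comparison addresses how far maternal transcripts persisted and zygotic transcripts were reached in embryos whose eggs lacked a normal supply of Ybx1.

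Genes were separated by their level at 0 hpf, which the contrast at 6 hpf did not use. Egg transcripts had at least 5 FPKM in both 0 hpf libraries (9361 genes, of which 9354 were counted at 6 hpf). Zygotic transcripts had less than 1 FPKM in both (17250 genes, 2432 counted), and the other 5259 genes lay in between (4004 counted). Genes are called higher or lower when they were at least 2-fold apart on log2(FPKM + 1). This scale compresses differences between low values. Single genes are given as FPKM with their ratio and, in parentheses, an exact (Clopper-Pearson) 95% interval that covers counting error only. Near the minimum, ccny with 0.618 FPKM in WT and 1.38 in Mybx1 and PLXDC2 with 1.86 and 0.145 were just counted, while nfatc2b with 0.984 and 1.02 and rprd2b with 0.652 and 1.35 were just left out.

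The libraries rested on 6042830 to 7570070 reads each and held 13213 to 15207 genes at 1 FPKM or more. The level of ybx1 itself set the libraries apart as labelled, with 338 FPKM in WT against 11.9 in Mybx1 at 0 hpf, and 2287 against 54.2 at 6 hpf, 42.2-fold lower (38.0 to 47.0) at that stage. Of the smallest whole reads recovered for genes, egg transcripts took up 95.9% at 0 hpf in each genotype, 83.4% in WT at 6 hpf and 93.6% in Mybx1 at 6 hpf. Zygotic transcripts took up 0.281% in WT and 0.378% in Mybx1 at 0 hpf, and 8.32% and 1.59% at 6 hpf. In whole embryos, fewer cells of a type and less RNA per cell cannot be told apart, here or in any result on tissue genes that follows.

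Of the 15790 genes counted at 6 hpf, 6035 (38.2%) were higher in Mybx1, 3284 (20.8%) were lower and 6471 were within 2-fold. The egg transcripts were mostly on the higher side, with 4408 higher (47.1%), 4046 within 2-fold and 900 lower (9.62%), and a median difference of 0.90 on the log2(FPKM + 1) scale. The zygotic transcripts were mostly on the lower side, with 1476 lower (60.7%), 737 within 2-fold and 219 higher (9.005%), and a median difference of -1.33. The genes in between had 1408 higher and 908 lower and a median of 0.36. A zygotic gene could be counted only through a 6 hpf library in which it was high, so its class favours genes that differ in either direction, and levels over whole classes are given below. The median over all genes counted was 0.49.

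**Figure D1:**
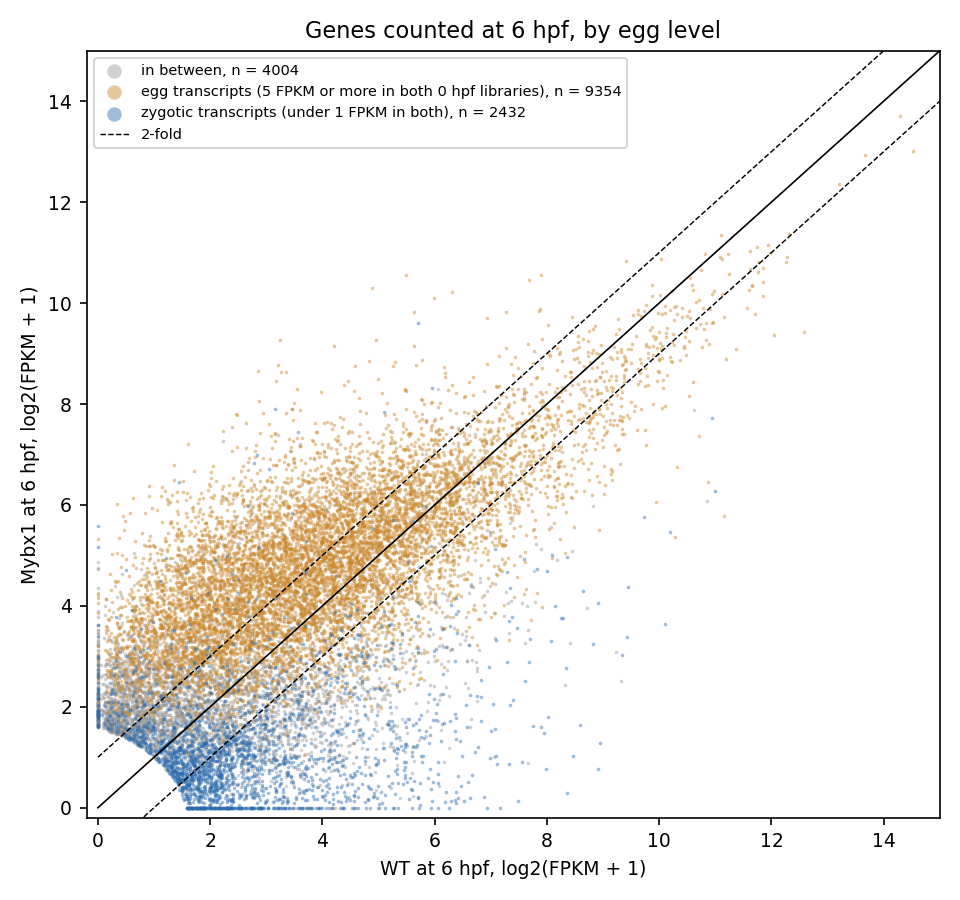
Level of each counted gene as log2(FPKM + 1) in WT (x axis) and Mybx1 (y axis) at 6 hpf, with 9354 egg transcripts in orange, 4004 genes in between in grey and 2432 zygotic transcripts in blue, the line of equal levels solid and the 2-fold lines dashed. Most called egg transcripts lie above the diagonal (4408 higher, 900 lower), and most called zygotic transcripts lie below it (1476 lower, 219 higher).

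FPKM are shares of a library, and the split of the calls depended on the scaling. With each library divided by a median-ratio size factor (0.682 for WT and 1.15 for Mybx1 at 6 hpf), 3946 genes were higher and 5398 lower, so that the share of higher calls went from 64.8% to 42.2% and the median over all genes from 0.49 to -0.17. With each library set to the same FPKM sum (TPM), the share of higher calls was 70.22% and the median 0.71. Differences of some gene groups are therefore also given relative to the median of all genes counted. That median itself fell with median-ratio scaling, which bears on each group median given with that scaling. Relative to it, unfolded protein response genes stood at 0.30, and at 0.21 with median-ratio scaling. Retinoic acid genes stood at -0.37 and -0.45 in the same order. Counts within gene groups stand beside 38.2% higher and 20.8% lower over all genes counted. Groups made up mostly of egg transcripts also stand beside that class, with 47.1% higher, 9.62% lower and a median of 0.90. Groups mostly of zygotic transcripts stand beside 60.7% lower, 9.005% higher and a median of -1.33. Of 334 genes eligible to be named, 247 were past 2-fold. Their direction could not change under either scaling or with a pseudocount of 0.1 or 5, and 0 did. A pseudocount keeps the order of WT and Mybx1, and either scaling shifts their ratio by less than 2-fold. With median-ratio scaling 14 of the 247 came within 2-fold. Those described below are MT-ATP6, axin1, cfl1l, ckma, eif4e1b, etv5a, foxa, otx1 and stat2, at differences of 0.31 to 0.86. Another 24 genes that had been within 2-fold passed it. With TPM scaling 4 came within 2-fold, among them h2ax, pou5f3 and rrm2b, at -0.99 to -0.91. With a pseudocount of 5, 23 did so, among them the low-level genes ckma, gata3, lama5, otx1, raraa, rrm2b, sebox, smad1, spred1, stat2, stra6, tbx1 and zic5.

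Up to 100 FPKM, the share of lower genes was smaller at each higher level in the egg. Among counted genes at 0 in both 0 hpf libraries, 64.0% were lower and 10.8% higher in Mybx1 at 6 hpf. The share of lower genes was 60.7% up to 0.5 FPKM, 44.2% from 0.5 to 1, 20.2% from 1 to 5, 12.8% from 5 to 20 and 8.15% from 20 to 100 FPKM. The share of higher genes was 8.41%, 12.8%, 34.7%, 46.5% and 49.4% in the same order. Above 100 FPKM the order turned, with 38.6% higher and 14.5% lower. Of the genes at 0 in both 0 hpf libraries, 873 of 10396 were counted, and of those up to 0.5 FPKM 1308 of 6164. From 20 to 100 FPKM all 5020 were. A gene low in the egg was counted only through a 6 hpf library in which it was high. At low egg levels the filter thus favours genes that differ in either direction, and its part in this order was not tested.

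**Figure D2:**
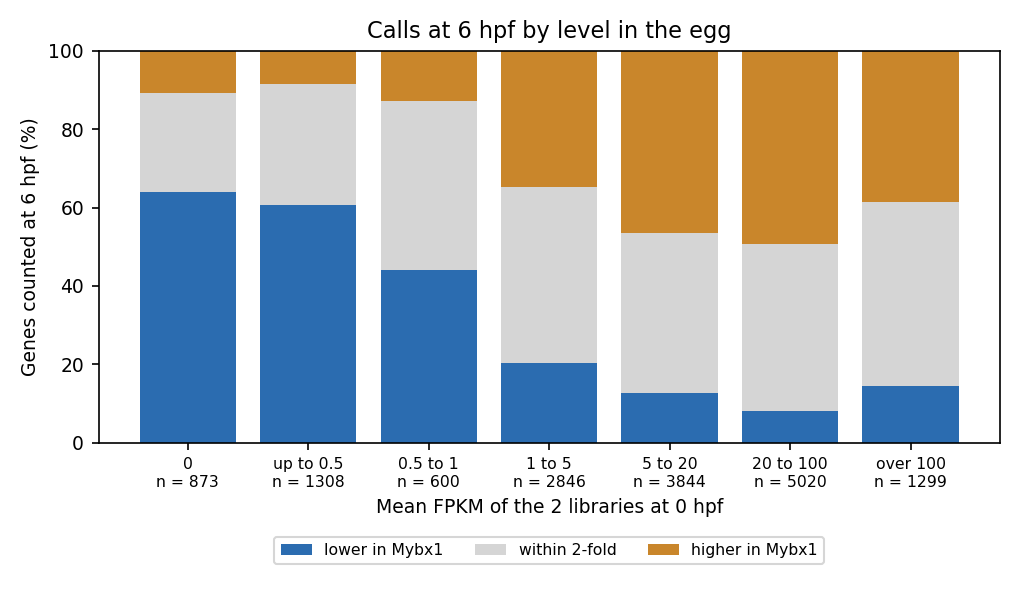
Share of counted genes (y axis, percent) that were lower, within 2-fold or higher in Mybx1 at 6 hpf, by mean FPKM of both 0 hpf libraries (x axis, n genes under each bar). The share of lower genes goes from 64.0% in genes at 0 in the egg to 8.15% in genes of 20 to 100 FPKM, and the share of higher genes from 10.8% to 49.4%. At the lowest egg levels most genes were not counted, which favours genes that differ there.

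Egg transcripts stood at a larger share of their egg level in Mybx1 than in WT. Each of the 9361 egg transcripts was expressed as a percentage of its own level in the 0 hpf library of the same genotype. The median was 42.1% in WT (quartiles 17.8% and 93.5%) and 90.1% in Mybx1 (68.2% and 109%). With median-ratio scaling, an alternative chosen after seeing the data, the medians were 70.26% in WT and 94.5% in Mybx1. At 6 hpf 3205 egg transcripts (34.2%) had 25% or less of their egg level in WT, against 130 (1.39%) in Mybx1, and with that scaling 1992 and 113 did. Conversely, 4129 (44.1%) stood at 50% or more of it in WT and 8373 (89.4%) in Mybx1. Gains were also fewer in Mybx1, where 84 egg transcripts (0.897%) had at least 2 times their egg level, against 788 (8.42%) in WT, and 87 against 1718 with that scaling.

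**Figure D3:**
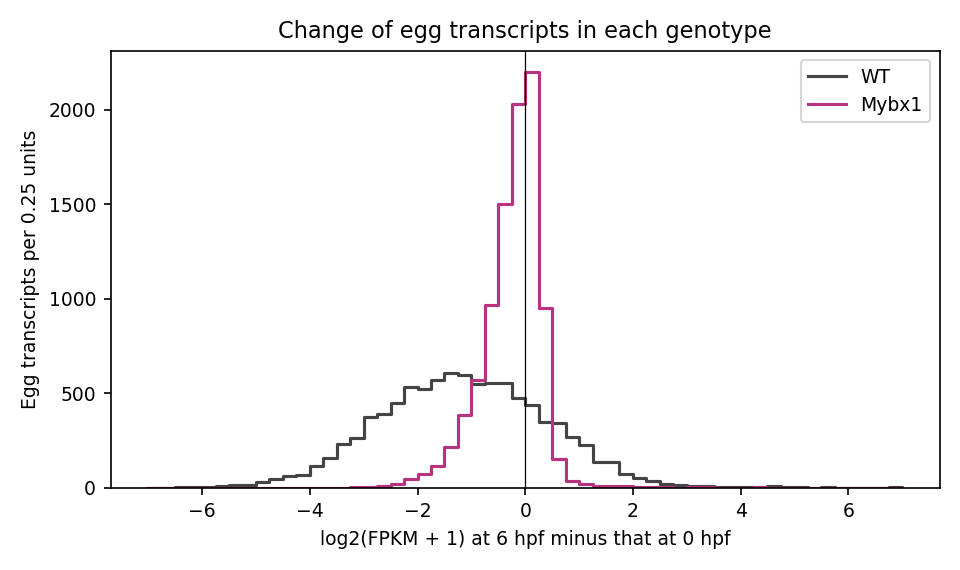
Number of egg transcripts (y axis) by the difference of log2(FPKM + 1) at 6 hpf from that at 0 hpf (x axis), for WT and Mybx1. The WT values spread over a wide range with a median of 42.1% of the egg level, and the Mybx1 values form a narrow peak with a median of 90.1%.

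The 4408 egg transcripts that were higher in Mybx1 at 6 hpf had medians of 29.7 FPKM in WT and 33.2 in Mybx1 at 0 hpf, and 4.96 and 26.6 at 6 hpf. In the egg 4159 of them (94.4%) were within 2-fold between the 0 hpf libraries, 191 (4.33%) were higher and 58 (1.32%) lower. Of the egg transcripts within 2-fold at 6 hpf, 93.3% were within it at 0 hpf, 1.56% higher and 5.19% lower. The limit of 5 FPKM in both 0 hpf libraries itself favours such agreement. At 0 hpf 8.85% of the 13811 genes counted there were higher in Mybx1 and 6.7% were lower. The 900 egg transcripts that were lower in Mybx1 had medians of 33.7 and 25.7 FPKM at 0 hpf and 77.7 and 23.3 at 6 hpf. Of these 121 (13.4%) were already lower at 0 hpf.

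Among the egg transcripts furthest apart, btg4 encodes an adaptor that brings the CCR4-NOT deadenylase to maternal mRNA. It stood at 556 FPKM in WT against 783 in Mybx1 at 0 hpf, and 6.22 against 401 at 6 hpf, 64.5-fold higher (43.2 to 101). The gene of an inhibitor of protein kinase A, pkig, stood at 56.8 FPKM in WT against 84.0 in Mybx1 at 0 hpf, and 0.269 against 63.9 at 6 hpf, 238-fold higher (65.5 to 1972). The interleukin-13 receptor gene il13ra2 stood at 68.8 FPKM in WT against 115 in Mybx1 at 0 hpf, and 0.54 against 69.2 at 6 hpf, 128-fold higher (54.7 to 396). In WT all 3 were far below their egg level at 6 hpf, and in Mybx1 all 3 were within 2-fold of it.

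The same order was seen in ppp1r3c2b, a regulatory subunit gene of protein phosphatase 1, with 8.22 FPKM in WT against 438 in Mybx1, 53.2-fold higher (43.3 to 66.3). The ankyrin repeat and SOCS box gene asb8 had 1.57 FPKM in WT against 109 in Mybx1, 69.9-fold higher (38.8 to 141), and ripor3 had 2.04 FPKM in WT against 147 in Mybx1, 71.8-fold higher (49.2 to 109). The largest difference among egg transcripts by the rule applied belonged to si:dkey-163f14.5, whose function is not given in the tables used. It had 8.52 FPKM in WT against 615 in Mybx1, 72.2-fold higher (49.5 to 109.9). Also without a given function, si:ch73-335l21.4 had 0.87 FPKM in WT against 82.4 in Mybx1, 94.7-fold higher (43.2 to 259).

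**Figure D4:**
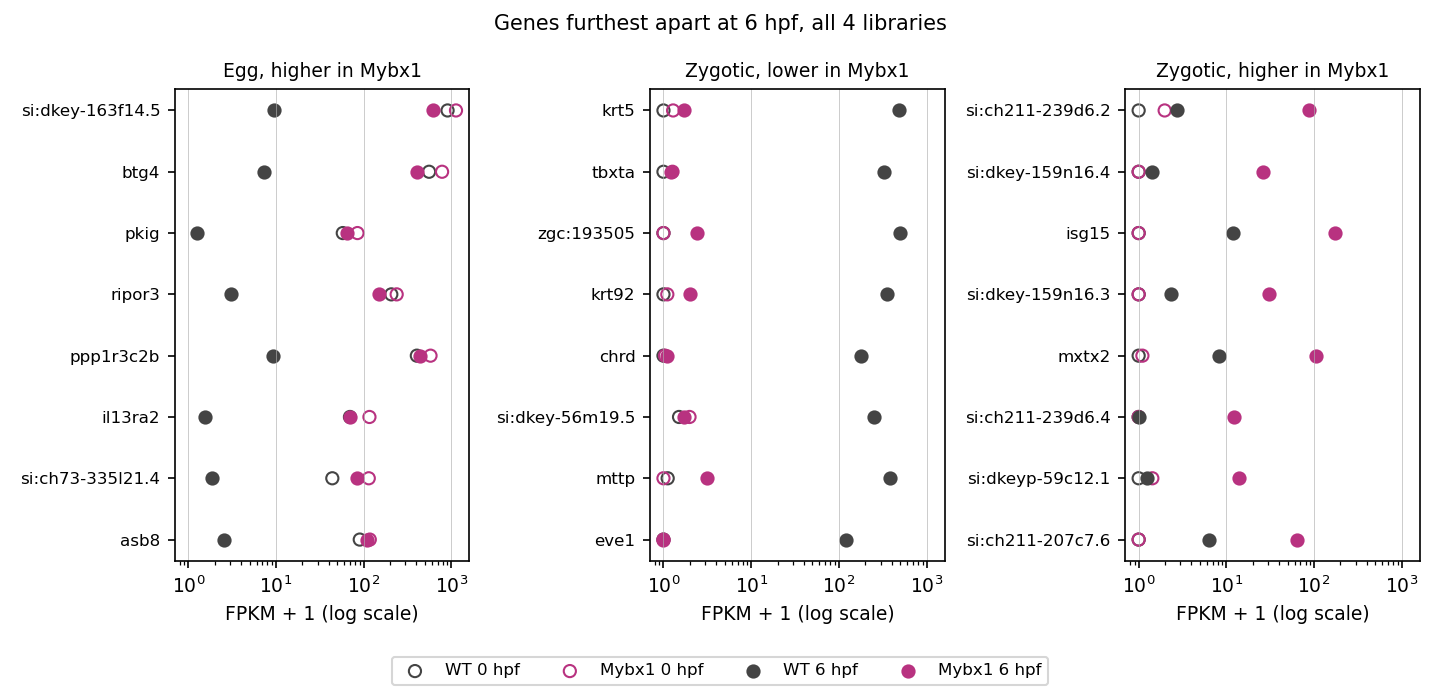
FPKM + 1 (x axis, log scale) in all 4 libraries for the 8 egg transcripts furthest above WT, the 8 zygotic transcripts furthest below WT and the 8 zygotic transcripts furthest above WT in Mybx1 at 6 hpf. In the left panel WT at 6 hpf (filled grey) stands apart from the other libraries, with btg4 at 6.22 FPKM against 401 in Mybx1. In the middle panel WT at 6 hpf alone is high, with tbxta at 325 FPKM against 0.216.

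Genes of the oocyte and egg stood far above WT. Of 27 identifiers matched, 26 were counted, 20 were higher in Mybx1 and 0 lower. Their median difference was 3.68, or 3.20 above that of all genes. Their summed level was 13004 FPKM in WT and 12047 in Mybx1 at 0 hpf, and 457 and 6582 at 6 hpf. The egg histone gene h2af1al stood at 1873 FPKM in WT against 1633 in Mybx1 at 0 hpf, and 28.6 against 1267 at 6 hpf, 44.4-fold higher (36.4 to 54.6). The lipase gene lipg stood at 4.5 FPKM in WT against 221 in Mybx1, 49.2-fold higher (34.9 to 71.7). The oocyte transcription factor gene figla differed already in the egg. It had 5.42 FPKM in WT against 46.4 in Mybx1 at 0 hpf, and 0 against 38.9 at 6 hpf, at least 45.4-fold higher.

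The egg coat genes named here come from the lowest end of the list of oocyte and egg genes. Their closeness to WT thus follows from the naming rule, and egg coat genes as a set were not tested. The zona pellucida gene zp3b had 354 FPKM in WT against 121 in Mybx1 at 0 hpf, and 28.6 against 43.4 at 6 hpf, and was thus low in Mybx1 eggs already. Its relative zp3a.1 had 107 FPKM in WT against 66.6 in Mybx1 at 0 hpf, and 15.8 against 30.4 at 6 hpf. The splicing regulator gene esrp2, with 12.9 FPKM in WT against 15.9 in Mybx1 at 6 hpf, and zp2.1, with 0.597 FPKM in WT against 1.85 in Mybx1, were also within 2-fold on the log2(FPKM + 1) scale.

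Germ plasm genes, which specify the germ cells, were higher in 11 of 16 counted cases and lower in 0, with a median of 2.15, which is 1.67 above all genes. The organiser of the germ plasm, buc, had 582 FPKM in WT against 524 in Mybx1 at 0 hpf, and 9.16 against 224 at 6 hpf, 24.4-fold higher (20.03 to 30.1). The gene of the translational repressor nanos3, needed for survival of primordial germ cells, had 69.5 FPKM in WT against 166 in Mybx1 at 0 hpf, and 3.13 against 109 at 6 hpf, 34.7-fold higher (22.7 to 55.7). The carbonic anhydrase gene ca15b had 11.1 FPKM in WT against 234 in Mybx1, 21.1-fold higher (16.1 to 28.1). The maternal linker histone gene h1m had 48.7 FPKM in WT against 904 in Mybx1, 18.6-fold higher (16.8 to 20.6). The RNA helicase gene ddx4 (vasa) stayed near its egg level in both genotypes, with 54.1 FPKM in WT against 49.6 in Mybx1 at 0 hpf, and 51.6 against 42.1 at 6 hpf. Both Piwi genes of the list were within 2-fold at 6 hpf. For piwil1 the levels were 49.5 FPKM in WT against 17.6 in Mybx1 at 0 hpf, and 24.8 against 15.7 at 6 hpf. It was thus low in Mybx1 eggs already. For piwil2 they were 45.9 FPKM in WT against 26.7 in Mybx1 at 0 hpf, and 8.66 against 11.1 at 6 hpf.

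Maternal ribonucleoproteins and translational repressors package and silence stored mRNA. Their 24 genes had 11 higher and 5 lower, beside 38.2% higher and 20.8% lower over all genes, with a median of 0.96. Of the 24 genes 23 were egg transcripts, a class with 47.1% higher, 9.62% lower and a median of 0.90. A component of repressed ribonucleoproteins, lsm14b, had 249 FPKM in WT against 366 in Mybx1 at 0 hpf, and 8.57 against 394 at 6 hpf, 46.0-fold higher (37.3 to 57.2). The maternal poly(A)-binding gene pabpn1l had 14.7 FPKM in WT against 299.97 in Mybx1, 20.4-fold higher (16.0 to 26.5). The oocyte translation regulator gene zar1l had 5.5 FPKM in WT against 121 in Mybx1, 21.95-fold higher (15.9 to 31.1). The oocyte repressor gene patl2 had 4.88 FPKM in WT against 101 in Mybx1, 20.7-fold higher (15.7 to 27.9). These 4 stood at 14.7 FPKM or less in WT and at 101 or more in Mybx1.

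Besides ybx1 itself, ddx61, a DEAD-box helicase gene, was low in Mybx1 at both stages. It had 23.0 FPKM in WT against 4.18 in Mybx1 at 0 hpf, and 221 against 15.9 at 6 hpf, 13.9-fold lower (11.6 to 16.8). The mRNA-binding protein gene igf2bp1 had 26.8 FPKM in WT against 66.7 in Mybx1 at 0 hpf, and 312 against 70.07 at 6 hpf, 4.45-fold lower (4.2 to 4.72).

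The machinery that clears maternal mRNA was represented by 40 counted genes, of which 15 were higher, 20 within 2-fold and 5 lower, with a share of higher genes near that over all genes. Its median was 0.60, which is 0.12 above all genes, and -0.09 with median-ratio scaling. Of the 40 genes 36 were egg transcripts, a class with 47.1% higher and a median of 0.90. The deadenylase gene cnot6b had 1.63 FPKM in WT against 24.99 in Mybx1, 15.3-fold higher (12.3 to 19.3). Another deadenylase gene, cnot7, had 3.17 FPKM in WT against 21.7 in Mybx1, 6.87-fold higher (4.85 to 9.98). The decapping activator gene lsm1 had 2.96 FPKM in WT against 55.1 in Mybx1, 18.6-fold higher (11.4 to 32.3). Others were lower. The decapping enzyme gene dcp2 had 25.8 FPKM in WT against 6.66 in Mybx1, 3.87-fold lower (3.07 to 4.92). Its scaffold gene edc4 had 25.8 FPKM in WT against 10.6 in Mybx1 at 0 hpf, and 35.7 against 12.3 at 6 hpf, 2.89-fold lower (2.61 to 3.2), and was thus lower in Mybx1 eggs already. The microRNA effector gene tnrc6a had 117 FPKM in WT against 39.7 in Mybx1, 2.95-fold lower (2.75 to 3.18). A reader of methylated adenosine that acts in maternal mRNA clearance, ythdf2, had 162 FPKM in WT against 60.1 in Mybx1, 2.69-fold lower (2.47 to 2.93).

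The egg transcripts furthest below WT were mostly genes that WT embryos had raised above their egg level. The dynein light chain gene dynll1 stood at 26.5 FPKM in WT against 7.53 in Mybx1 at 0 hpf, and 1251 against 40.4 at 6 hpf, 31.0-fold lower (27.0 to 35.8). The keratin gene krt8 stood at 5.54 FPKM in WT against 8.77 in Mybx1 at 0 hpf, and 1860.4 against 86.3 at 6 hpf, 21.6-fold lower (19.9 to 23.3). The nucleosome-binding gene hmgn1b stood at 5.76 FPKM in WT against 20.9 in Mybx1 at 0 hpf, and 979 against 65.3 at 6 hpf, 14.99-fold lower (13.7 to 16.4). In each of these, Mybx1 also stood above its own eggs, but by far less than WT.

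The finTRIM gene ftr83 stayed near the egg level in Mybx1, with 5.29 FPKM in WT against 7.65 in Mybx1 at 0 hpf, and 159.5 against 8.97 at 6 hpf, 17.8-fold lower (14.5 to 22.1). The same held for si:dkey-19e4.5, with 7.85 FPKM in WT against 11.3 in Mybx1 at 0 hpf, and 107 against 8.37 at 6 hpf, 12.8-fold lower (9.93 to 16.9). EWSR1, a symbol given in its human form for an RNA-binding protein, had 193 FPKM in WT against 17.8 in Mybx1, 10.9-fold lower (9.25 to 12.8). The gene si:ch211-222l21.1 had 1277 FPKM in WT against 106 in Mybx1, 11.997-fold lower (11.0 to 13.1).

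Maternal activators of the zygotic genome did not move together. Of 10 genes 3 were higher, 2 within 2-fold and 5 lower, beside 38.2% higher and 20.8% lower over all genes, with a median of -0.77. The homeobox gene nanog had 325 FPKM in WT against 375 in Mybx1 at 0 hpf, and 48.6 against 564 at 6 hpf, 11.6-fold higher (10.7 to 12.7). The SoxB1 gene sox19b had 284 FPKM in WT against 349 in Mybx1 at 0 hpf, and 37.3 against 432 at 6 hpf, 11.6-fold higher (10.7 to 12.6). The POU factor gene pou5f3, which acts with these factors on the silent genome, had 153 FPKM in WT against 219 in Mybx1 at 0 hpf, and 637 against 276 at 6 hpf, 2.3-fold lower (2.22 to 2.39). Against its own eggs, WT thus had less nanog and sox19b and more pou5f3, while Mybx1 stayed within 2-fold for all 3.

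The transducer of Nodal signals smad2 was higher, with 11.2 FPKM in WT against 57.4 in Mybx1, 5.15-fold higher (4.32 to 6.17). The Myc family gene mych had 258 FPKM in WT against 61.8 in Mybx1, 4.18-fold lower (3.87 to 4.52). The basic helix-loop-helix factor gene tcf3b had 104 FPKM in WT against 14.2 in Mybx1, 7.33-fold lower (6.55 to 8.23). The beta-catenin gene ctnnb1 had 645 FPKM in WT against 202 in Mybx1, 3.19-fold lower (3.05 to 3.35), whereas its paralog ctnnb2 was within 2-fold with 191 FPKM in WT against 268 in Mybx1.

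Over the whole class of 17250 zygotic transcripts, fewer genes reached a given level in Mybx1. At least 1 FPKM was reached by 2698 genes in WT and 1583 in Mybx1, 1017 of them in both. At least 5 FPKM was reached by 960 genes in WT and 259 in Mybx1. The 170 genes in both were 17.7% of the WT genes and 65.6% of the Mybx1 genes. Of the 960 genes, 432 were under 1 FPKM in Mybx1, and 92 had 0 reads there. At least 100 FPKM was reached by 67 genes in WT and 10 in Mybx1, with 2 in both.

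Among the zygotic genes furthest below WT were genes of the outer epithelium, the mesoderm and the yolk. The keratin gene krt5 had 479 FPKM in WT against 0.696 in Mybx1, 688-fold lower (316 to 1876). Another keratin gene, krt92, had 351 FPKM in WT against 1.03 in Mybx1, 341-fold lower (173 to 790.3). The T-box gene tbxta, required for notochord and tail, had 325 FPKM in WT against 0.216 in Mybx1, 1504-fold lower (416 to 12427). A secreted antagonist of BMP, chrd, had 178 FPKM in WT against 0.101 in Mybx1, 1765-fold lower (488 to 14581). At 0 hpf these 4 genes were at 0 in WT and at 0.288 FPKM or less in Mybx1.

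The homeobox gene eve1 had 121 FPKM in WT against 0 in Mybx1, at least 11.9-fold lower, against the level of 3 reads. The lipoprotein assembly gene mttp had 384 FPKM in WT against 2.13 in Mybx1, 181-fold lower (126 to 269.8). The names zgc:193505 and si:dkey-56m19.5 give no function. The first had 493 FPKM in WT against 1.43 in Mybx1, 344-fold lower (147 to 1061). The second had 252 FPKM in WT against 0.712 in Mybx1, 353-fold lower (186 to 773).

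Genes of the first wave of zygotic transcription were lower in 24 and higher in 3 of 33 counted cases (35 matched). Their median was -3.22, or -3.70 relative to all genes. Over all 35, the summed level at 6 hpf was 8859 FPKM in WT and 1293 in Mybx1, and 33 genes reached 1 FPKM in WT and 29 in Mybx1. The endoderm determinant sox32 had 159.7 FPKM in WT against 0.815 in Mybx1, 196-fold lower (89.8 to 535). A phosphatase gene that dampens FGF signalling, dusp6, had 216 FPKM in WT against 2.08 in Mybx1, 104-fold lower (69.1 to 164). The forkhead gene foxd5 had 47.2 FPKM in WT against 0 in Mybx1, at least 36.5-fold lower. The hairy-related gene her5 was within 2-fold, with 5.72 FPKM in WT against 8.74 in Mybx1. The 3 members above WT were mxtx2, isg15 and aplnrb. The last, a receptor for Apela, had 61.2 FPKM in WT against 316 in Mybx1, 5.17-fold higher (4.79 to 5.58).

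In the Nodal pathway, whose ligands induce mesoderm and endoderm, 7 of 11 counted genes were lower and 2 higher, with a median of -1.85. Of the 11 genes 4 were egg transcripts and 6 were zygotic transcripts, a class with 60.7% lower and a median of -1.33. The ligand gene ndr1 (squint) was within 2-fold, with 0.166 FPKM in WT against 0.688 in Mybx1 at 0 hpf, and 3.62 against 4.99 at 6 hpf. The maternal ligand gene gdf3 (vg1), a partner of the Nodal ligands, had 508 FPKM in WT against 473 in Mybx1 at 0 hpf, and 120.4 against 444 at 6 hpf, 3.68-fold higher (3.42 to 3.97). The co-receptor gene tdgf1 was within 2-fold, with 105 FPKM in WT against 72.7 in Mybx1. The messages of ndr1, gdf3 and tdgf1 thus stood within 2-fold of WT or above it. They are among the 4 highest counted members of this list, and no other ligand or co-receptor gene is reported here.

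The genes furthest below WT in this list lie downstream of Nodal. The feedback inhibitor gene lft1 had 52.0 FPKM in WT against 1.92 in Mybx1, 27.1-fold lower (16.5 to 47.8). The mesendoderm homeobox gene mixl1 had 21.1 FPKM in WT against 2.2 in Mybx1, 9.6-fold lower (6.73 to 14.1). The organizer homeobox gene gsc had 30.2 FPKM in WT against 0.817 in Mybx1, 37.0-fold lower (16.7 to 102).

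Mesoderm genes had 16 lower, 2 higher and 1 within 2-fold among 19 counted, with a median of -3.84, or -4.33 relative to all genes. Over these 19 of 21 matched genes the median level at 6 hpf was 60.4 FPKM in WT and 1.02 in Mybx1. Summed over all 21, the level was 1359 FPKM in WT and 435 in Mybx1. Most of the Mybx1 sum came from aplnrb, a higher member, with 61.2 FPKM in WT against 316 in Mybx1. The segmentation genes mespab and her7 were low together with tbxta and eve1. The former had 60.4 FPKM in WT against 0 in Mybx1, at least 112-fold lower. The latter had 36.6 FPKM in WT against 0.400 in Mybx1, 91.5-fold lower (24.98 to 761). The T-box gene tbx1 had 3.92 FPKM in WT against 0.172 in Mybx1, 22.8-fold lower (5.96 to 193). The repressor gene snai1a, which is present in the egg, stood at 31.4 FPKM in WT against 36.6 in Mybx1 at 0 hpf, and 138 against 51.3 at 6 hpf, 2.69-fold lower (2.43 to 2.99). Closer to WT was ripply1, a partner of T-box proteins, with 41.3 FPKM in WT against 20.9 in Mybx1.

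Endoderm genes were lower in 11 of 14 counted cases (16 matched), with a median of -2.90. The zinc finger gene gata6 had 98.4 FPKM in WT against 3.68 in Mybx1, 26.7-fold lower (19.7 to 37.1). The sphingosine phosphate receptor gene s1pr5a had 50.4 FPKM in WT against 1.35 in Mybx1, 37.2-fold lower (23.9 to 61.3). The TEAD cofactor gene vgll4l had 22.7 FPKM in WT against 6.93 in Mybx1, 3.28-fold lower (2.33 to 4.7). The forkhead gene foxa was on the other side at both stages, with 36.5 FPKM in WT against 95.03 in Mybx1 at 0 hpf, and 33.7 against 90.03 at 6 hpf, 2.67-fold higher (2.32 to 3.07). The genes onecut1, with 6.73 FPKM in WT against 6.68 in Mybx1, and rgs12a, with 1.59 FPKM in WT against 1.6 in Mybx1, were within 2-fold.

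In the dorsal organizer, which patterns the body axis, 14 of 15 counted genes were lower (17 matched), with a median of -3.18. The summed level of all 17 at 6 hpf was 748 FPKM in WT and 99.8 in Mybx1. The homeobox gene noto had 64.7 FPKM in WT against 3.17 in Mybx1, 20.4-fold lower (12.9 to 34.2). The forkhead gene foxa3 had 53.4 FPKM in WT against 2.58 in Mybx1, 20.7-fold lower (15.3 to 28.9). The secreted Wnt inhibitor gene dkk1b had 25.6 FPKM in WT against 6.36 in Mybx1, 4.02-fold lower (2.17 to 8.03). At a lower level, the homeobox gene sebox had 3.82 FPKM in WT against 0.146 in Mybx1, 26.1-fold lower (9.92 to 97.7). The retinoic acid degrading enzyme gene cyp26a1 changed sides between stages. It had 9.81 FPKM in WT against 92.4 in Mybx1 at 0 hpf, and 136 against 49.3 at 6 hpf, 2.77-fold lower (2.47 to 3.11).

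On the ventral side 18 of 21 counted genes were lower and 0 higher (24 matched), with a median of -2.67. The caudal homeobox gene cdx4 had 91.2 FPKM in WT against 0.103 in Mybx1, 887-fold lower (159 to 35071). The ventral homeobox gene ved had 109 FPKM in WT against 1.29 in Mybx1, 84.1-fold lower (42.5 to 196). A direct target of BMP signals, id1, had 113 FPKM in WT against 2.3 in Mybx1, 49.1-fold lower (29.1 to 90.3). The effector gene smad1 had 1.8 FPKM in WT against 0.274 in Mybx1, 6.58-fold lower (2.56 to 21.6). The other 3 counted members were within 2-fold. The BMP receptor gene acvr1l had 147 FPKM in WT against 149.8 in Mybx1 at 0 hpf, and 293 against 187 at 6 hpf. The effector gene smad5 had 55.4 FPKM in WT against 75.01 in Mybx1 at 0 hpf, and 58.6 against 97.0 at 6 hpf. The ectodermal forkhead gene foxi1 had 0.0807 FPKM in WT against 1.34 in Mybx1 at 0 hpf, and 27.1 against 32.1 at 6 hpf.

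Of the Wnt genes 6 were lower and 1 higher among 11 counted (14 matched), with a median of -1.54. The ligand genes wnt5b and wnt11f2 act in cell movements of gastrulation. For wnt5b the levels were 43.7 FPKM in WT against 0.877 in Mybx1, 49.9-fold lower (26.9 to 105). For wnt11f2 they were 76.7 FPKM in WT against 12.7 in Mybx1, 6.06-fold lower (5.13 to 7.19). The feedback gene axin2 had 50.9 FPKM in WT against 7.33 in Mybx1, 6.94-fold lower (5.59 to 8.71), and the scaffold gene axin1 had 31.5 FPKM in WT against 77.4 in Mybx1, 2.46-fold higher (2.28 to 2.66). The transcription factor genes were within 2-fold, lef1 with 24.6 FPKM in WT against 22.1 in Mybx1 and tcf7l1b with 11.8 FPKM in WT against 14.3 in Mybx1.

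FGF genes were lower in 14 and higher in 2 of 17 counted cases (20 matched), with a median of -3.04. The receptor gene fgfr4 had 112 FPKM in WT against 4.76 in Mybx1, 23.6-fold lower (20.004 to 28.1). The transmembrane gene flrt3 had 61.4 FPKM in WT against 2.35 in Mybx1, 26.1-fold lower (20.2 to 34.4). The ETS factor gene etv4, a target of the pathway, had 66.8 FPKM in WT against 3.4 in Mybx1, 19.6-fold lower (13.05 to 31.0). Its relative etv5a is an egg transcript and stood on the other side, with 69.3 FPKM in WT against 70.23 in Mybx1 at 0 hpf, and 19.7 against 61.5 at 6 hpf, 3.12-fold higher (2.7 to 3.63). The other gene above WT, etv1, is a zygotic transcript. It had 0.181 FPKM in WT against 1.93 in Mybx1, 10.7-fold higher (4.63 to 30.2), and came within 2-fold with a pseudocount of 5. The inhibitor gene spred1 had 6.4 FPKM in WT against 1.25 in Mybx1, 5.1-fold lower (3.34 to 8.09), and the maternal inhibitor gene il17rd was within 2-fold with 38.0 FPKM in WT against 26.6 in Mybx1.

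Retinoic acid genes were 3 higher, 2 within 2-fold and 3 lower among 8 counted (12 matched), with a median of 0.12 that turned to -0.62 with median-ratio scaling. The synthesis enzyme gene aldh1a2 had 81.6 FPKM in WT against 0.112 in Mybx1, 729-fold lower (130.5 to 28837). The receptor gene raraa had 5.74 FPKM in WT against 0.751 in Mybx1, 7.64-fold lower (3.81 to 17.4). Its maternally supplied paralog rarab was within 2-fold, with 74.3 FPKM in WT against 102 in Mybx1. The retinol transporter gene stra6 had 0.98 FPKM in WT against 6.39 in Mybx1, 6.51-fold higher (3.61 to 12.8). The zygotic transcript cyp26c1 had 0.0795 FPKM in WT against 2.26 in Mybx1, 28.4-fold higher (7.5 to 240). It had 2 recovered reads in WT and came within 2-fold with a pseudocount of 5.

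Neuroectoderm genes were lower in 7 and higher in 3 of 13 counted cases (18 matched), with a median of -1.45. Of the 13 genes 9 were zygotic transcripts, a class with 60.7% lower and a median of -1.33. The SoxB1 gene sox2 had 65.7 FPKM in WT against 0.399 in Mybx1, 164-fold lower (70.18 to 508), and its relative sox3 had 125 FPKM in WT against 5.91 in Mybx1, 21.1-fold lower (16.4 to 27.7). The head homeobox gene otx2a had 62.3 FPKM in WT against 3.44 in Mybx1, 18.1-fold lower (11.9 to 28.9). The members above WT were present in the egg. The homeobox gene otx1 had 21.8 FPKM in WT against 30.3 in Mybx1 at 0 hpf, and 12.2 against 26.0 at 6 hpf, 2.12-fold higher (1.78 to 2.54). The Sox gene sox21a had 6.44 FPKM in WT against 15.2 in Mybx1 at 0 hpf, and 0.426 against 8.06 at 6 hpf, 18.9-fold higher (6.15 to 94.6). The zinc finger gene zic5 had 4.31 FPKM in WT against 9.92 in Mybx1 at 0 hpf, and 1.07 against 5.84 at 6 hpf, 5.44-fold higher (3.11 to 10.2).

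The enveloping layer, the thin epithelium that covers the blastoderm, had 32 lower and 2 higher among 39 counted genes (43 matched). The median was -3.39, or -3.88 relative to all genes. Summed over the 43 genes the level at 6 hpf was 10625 FPKM in WT and 1738 in Mybx1. The keratin gene krt4 had 1094 FPKM in WT against 11.5 in Mybx1, 95.5-fold lower (82.1 to 112). A further keratin gene, krt97, had 187 FPKM in WT against 0.881 in Mybx1, 213-fold lower (108 to 494). Not all members were lower. The adhesion gene cdh1 was within 2-fold, with 195 FPKM in WT against 241 in Mybx1 at 0 hpf, and 152 against 237 at 6 hpf. The claudin gene cldn7b had 102 FPKM in WT against 152 in Mybx1 at 0 hpf, and 56.4 against 199 at 6 hpf, 3.53-fold higher (3.24 to 3.84). The cofilin-like gene cfl1l had 152 FPKM in WT against 393 in Mybx1 at 0 hpf, and 163 against 442 at 6 hpf, 2.72-fold higher (2.54 to 2.92).

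The yolk syncytial layer, which transfers yolk lipids to the embryo and drives epiboly, had 14 lower and 1 higher among 17 counted genes (26 matched), with a median of -3.01. The apolipoprotein gene apoc1 had 202 FPKM in WT against 0.849 in Mybx1, 238-fold lower (92.5 to 874). Its relatives apoa1a and apoa1b had 0 reads in Mybx1. The former had 31.3 FPKM in WT against 0 in Mybx1, at least 61.3-fold lower. The latter had 37.2 FPKM in WT against 0 in Mybx1, at least 7.42-fold lower. The zinc finger factor gene gata3 had 6.39 FPKM in WT against 1.83 in Mybx1, 3.5-fold lower (2.05 to 6.26). The member above WT was mxtx2, a homeobox regulator of this layer.

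Epiboly and adhesion genes, 15 of them egg transcripts, were mostly within 2-fold, 13 of 21, with 6 lower and 2 higher and a median of -0.47. The cadherin gene cdh2 had 44.7 FPKM in WT against 1.81 in Mybx1, 24.7-fold lower (18.8 to 33.2). The GTPase gene rhoab had 176 FPKM in WT against 10.8 in Mybx1, 16.2-fold lower (12.99 to 20.5). The laminin gene lama5 had 5.37 FPKM in WT against 0.674 in Mybx1, 7.97-fold lower (5.88 to 11.0). The kinase gene fynb had 1.52 FPKM in WT against 15.2 in Mybx1, 10.01-fold higher (6.67 to 15.6), and yes1, a related kinase gene, was within 2-fold with 84.5 FPKM in WT against 143 in Mybx1. The kinase gene rock1 was likewise within 2-fold, with 12.9 FPKM in WT against 24.4 in Mybx1.

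The zygotic transcripts above WT were few, 219, with medians of 0.390 FPKM in WT and 3.85 in Mybx1, and 56 of them had 0 reads in WT. The gene isg15 encodes a ubiquitin-like modifier induced by interferon. It had 0 FPKM in WT against 0 in Mybx1 at 0 hpf, and 10.8 against 172 at 6 hpf, 15.9-fold higher (12.6 to 20.3). The homeobox gene mxtx2 had 0 FPKM in WT against 0.103 in Mybx1 at 0 hpf, and 7.25 against 104 at 6 hpf, 14.3-fold higher (11.0 to 18.9). Both were thus zygotic transcripts of WT embryos as well, at lower levels.

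The other 6 of the 8 furthest above WT carry names without a function. Of them, si:ch211-239d6.2 had 1.72 FPKM in WT against 86.4 in Mybx1, 50.3-fold higher (26.2 to 111). Next, si:ch211-207c7.6 had 5.38 FPKM in WT against 62.2 in Mybx1, 11.6-fold higher (7.73 to 17.99). At a lower level, si:dkey-159n16.3 had 1.31 FPKM in WT against 29.8 in Mybx1, 22.7-fold higher (3.67 to 938). The remaining ones also had few reads in WT. For si:dkey-159n16.4 the levels were 0.413 FPKM in WT against 25.2 in Mybx1, 60.9-fold higher (10.5 to 2447). For si:dkeyp-59c12.1 they were 0.253 FPKM in WT against 12.8 in Mybx1, 50.6-fold higher (8.67 to 2039). Both had 1 recovered read in WT, as did si:dkey-159n16.3. With 5 recovered reads in Mybx1, si:ch211-239d6.4 had 0 FPKM in WT against 11.3 in Mybx1, at least 1.72-fold higher. The names with 239d6 and with 159n16 each mark a pair of genes on 1 clone, and whether the members of a pair share reads was not tested.

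In the genes between the classes, 589 of the 1408 higher ones (41.8%) were already higher in Mybx1 at 0 hpf. The same held for 220 of the 1688 genes within 2-fold at 6 hpf and for 125 of the 908 lower ones. By its limits this class takes in genes whose 0 hpf levels differed between the genotypes, which itself favours such calls at 0 hpf. The haematopoietic factor gene gata2b had 0.473 FPKM in WT against 31.7 in Mybx1 at 0 hpf, and 0 against 28.1 at 6 hpf, at least 114-fold higher. The hyaluronidase gene hyal6 had 2.68 FPKM in WT against 30.5 in Mybx1 at 0 hpf, and 0.342 against 23.7 at 6 hpf, 69.2-fold higher (18.8 to 577). Both differed in the egg and still did at 6 hpf. The gene zgc:64022 had 0.435 FPKM in WT against 9.82 in Mybx1 at 0 hpf, and 3.69 against 152 at 6 hpf, 41.3-fold higher (29.5 to 59.5). Furthest below WT were apoc1, the cyclin gene ccnd1 and HSP90AA1, a chaperone symbol in its human form. For ccnd1 the levels were 2.13 FPKM in WT against 0.588 in Mybx1 at 0 hpf, and 598 against 7.46 at 6 hpf, 80.2-fold lower (64.7 to 101). For HSP90AA1 they were 1.12 FPKM in WT against 4.79 in Mybx1 at 0 hpf, and 639 against 4.71 at 6 hpf, 136-fold lower (105 to 179), and near-identical copies of this gene may have shared reads. Over all counted genes, 780 were higher in Mybx1 at both stages and 360 were lower at both.

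Genes of the p53 pathway and cell death were higher in 19 and lower in 2 of 29 counted cases (31 matched). The median was 1.82, which is 1.33 above all genes. Of the 29 genes 21 were egg transcripts, a class with 47.1% higher and a median of 0.90. The cell cycle inhibitor gene cdkn1a (p21) had 1.84 FPKM in WT against 3.38 in Mybx1 at 0 hpf, and 8.25 against 167 at 6 hpf, 20.2-fold higher (15.1 to 27.6). The proapoptotic gene bbc3 (puma) had 0.486 FPKM in WT against 2.62 in Mybx1 at 0 hpf, and 2.61 against 33.0 at 6 hpf, 12.6-fold higher (9.75 to 16.7). The p53 target gene phlda3 had 0.0888 FPKM in WT against 2.21 in Mybx1 at 0 hpf. At 6 hpf it had 3.66 FPKM in WT against 35.8 in Mybx1, 9.78-fold higher (6.86 to 14.4). The gene sesn1 encodes a stress-induced inhibitor of mTORC1. It had 7.27 FPKM in WT against 18.1 in Mybx1 at 0 hpf, and 2.43 against 64.5 at 6 hpf, 26.6-fold higher (19.5 to 37.3). Its relative sesn3 was on the other side, with 155 FPKM in WT against 24.4 in Mybx1, 6.37-fold lower (5.82 to 6.98). The ribonucleotide reductase gene rrm2b had 19.5 FPKM in WT against 7.1 in Mybx1 at 0 hpf. At 6 hpf it had 15.4 FPKM in WT against 6.29 in Mybx1, 2.45-fold lower (1.78 to 3.41). The genes bbc3, phlda3, sesn1 and rrm2b were thus past 2-fold in the same direction at 0 hpf already. The p53 target gene ccng1 was within 2-fold, with 769 FPKM in WT against 896 in Mybx1 at 0 hpf, and 1194 against 1207 at 6 hpf.

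Unfolded protein response genes had 17 higher, 18 within 2-fold and 9 lower among 44 counted, which is near the shares over all genes (38.2% higher, 20.8% lower). Their median was 0.79, which was 0.04 with median-ratio scaling. Of the 44 genes 37 were egg transcripts, a class with 47.1% higher and a median of 0.90. The sensor gene eif2ak3 (perk) stood at 190.1 FPKM in WT against 154 in Mybx1 at 0 hpf, and 13.7 against 90.7 at 6 hpf, 6.6-fold higher (5.63 to 7.77). The phosphatase subunit gene ppp1r15b stood at 0.354 FPKM in WT against 16.7 in Mybx1, 47.3-fold higher (19.98 to 147). The lower genes mbtps1, trib3 and dnajc3a were low in Mybx1 eggs already. The protease gene mbtps1 had 37.9 FPKM in WT against 4.89 in Mybx1 at 0 hpf, and 24.9 against 1.56 at 6 hpf, 16.0-fold lower (11.6 to 22.7). The pseudokinase gene trib3 had 25.3 FPKM in WT against 2.14 in Mybx1 at 0 hpf, and 49.8 against 6.6 at 6 hpf, 7.53-fold lower (6.02 to 9.53). The chaperone gene dnajc3a had 33.7 FPKM in WT against 8.13 in Mybx1 at 0 hpf, and 10.6 against 1.02 at 6 hpf, 10.4-fold lower (5.05 to 24.9).

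Heat shock and chaperone genes were lower in 15 of 30 counted cases and higher in 0, with a median of -0.997, or -1.48 relative to all genes. The small heat shock gene hspb1 had 0 FPKM in WT against 1.07 in Mybx1 at 0 hpf, and 1854 against 66.2 at 6 hpf, 28.0-fold lower (24.98 to 31.5). The mitochondrial chaperonin gene hspe1 had 195 FPKM in WT against 32.4 in Mybx1, 6.00-fold lower (5.08 to 7.13). The Hsp110 family gene hsph1 had 9.77 FPKM in WT against 1.1 in Mybx1, 8.91-fold lower (5.22 to 16.3). The endoplasmic reticulum chaperone gene hsp90b1 was within 2-fold, with 65.9 FPKM in WT against 127 in Mybx1. The genes hsp70.3, with 40.8 FPKM in WT against 0.14 in Mybx1, and hsp70.1, with 0.904 FPKM in WT against 1.56 in Mybx1, are close copies, and their levels are uncertain.

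Interferon and innate immune genes were 4 higher, 8 within 2-fold and 2 lower among 14 counted (30 matched). Over all genes 38.2% were higher and 20.8% lower. The median of these 14 was 0.23, which was -0.32 with median-ratio scaling. Beside isg15, the interferon-induced gene ifit8 had 0.675 FPKM in WT against 6.9 in Mybx1, 10.2-fold higher (5.14 to 23.1). The signal transducer gene stat2 had 1.92 FPKM in WT against 4.84 in Mybx1, 2.52-fold higher (1.81 to 3.55). The immediate early gene jun had 10.05 FPKM in WT against 56.0 in Mybx1, 5.58-fold higher (4.22 to 7.47). Another immediate early gene, ier2a, had 20.1 FPKM in WT against 0.171 in Mybx1, 117-fold lower (20.6 to 4665). An inhibitor gene of NF-kappaB, nfkbiaa, had 15.3 FPKM in WT against 2.45 in Mybx1, 6.26-fold lower (3.62 to 11.6).

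**Figure D5:**
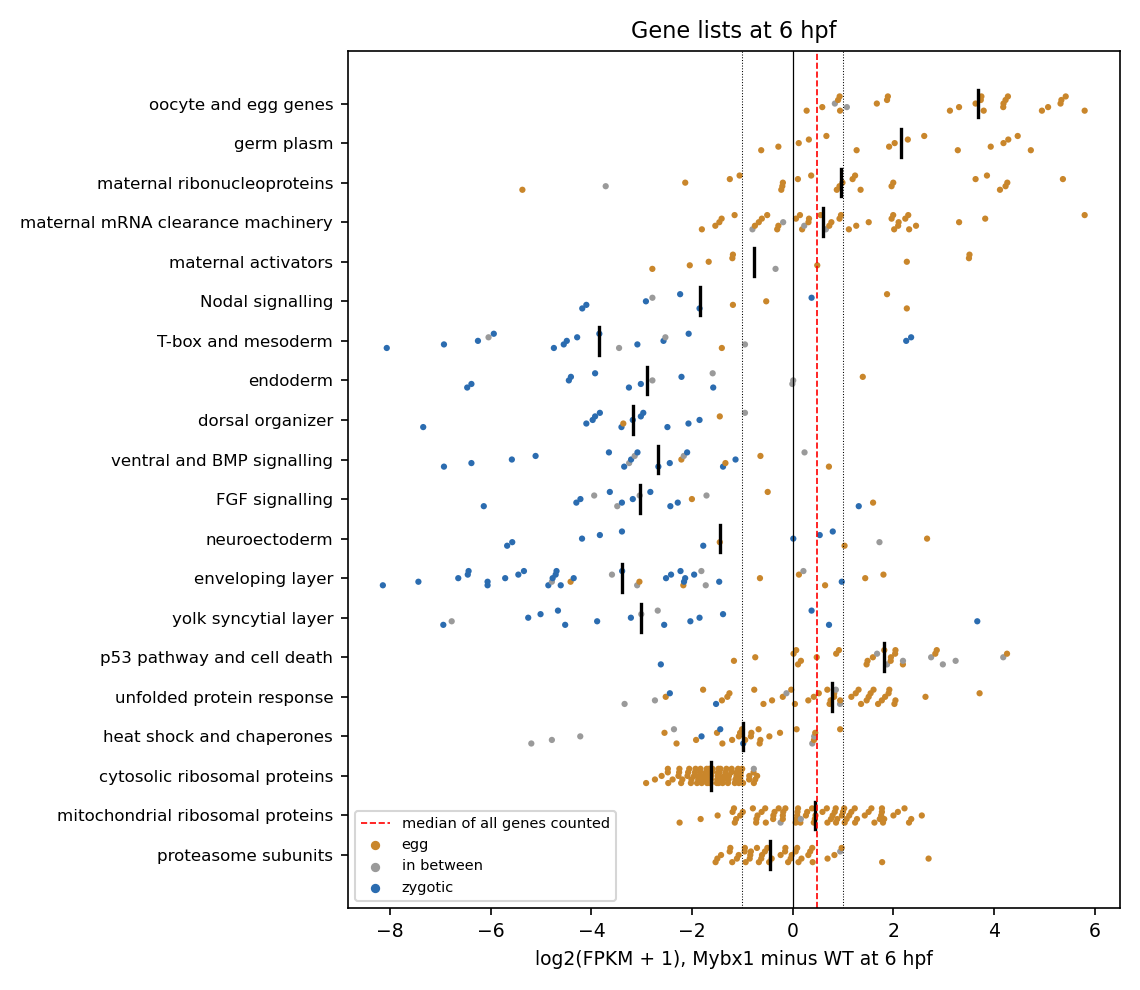
Difference of log2(FPKM + 1) between Mybx1 and WT at 6 hpf (x axis) for each counted gene of 20 gene groups, coloured by class, with a black bar at the median of a group, a dashed red line at the median of all genes counted (0.49) and dotted lines at 2-fold. Oocyte genes (median 3.68) and germ plasm genes (2.15) lie to the right, and genes of the organizer (-3.18), the enveloping layer (-3.39) and cytosolic ribosomal proteins (-1.63) to the left.

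Genes of cytosolic ribosomal proteins were lower although nearly all are egg transcripts. Of 83 counted, 75 were lower in Mybx1, 8 within 2-fold and 0 higher, with a median of -1.63, or -2.11 relative to all genes. Their summed level was 16303 FPKM in WT and 14548 in Mybx1 at 0 hpf, and 35413 and 12473 at 6 hpf. In FPKM, the sum at 6 hpf was more than 2-fold above that of the egg in WT and within 2-fold of it in Mybx1. WT was close to that limit, and the sums were not repeated under other scalings. The large subunit gene rpl13 had 84.9 FPKM in WT against 73.6 in Mybx1 at 0 hpf, and 278 against 48.9 at 6 hpf, 5.69-fold lower (4.98 to 6.51). Another, rpl34, had 78.0 FPKM in WT against 77.5 in Mybx1 at 0 hpf, and 324 against 57.1 at 6 hpf, 5.67-fold lower (4.89 to 6.59). The stalk protein gene rplp0 was within 2-fold, with 807 FPKM in WT against 471 in Mybx1.

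The translation factors had 18 lower, 44 within 2-fold and 8 higher among 70 counted, with a median of -0.42. The elongation factor gene eef1a1l1 had 574 FPKM in WT against 389 in Mybx1 at 0 hpf, and 6096 against 689 at 6 hpf, 8.85-fold lower (8.63 to 9.07). The initiation helicase gene eif4a2 was low in Mybx1 eggs already, with 3.63 FPKM in WT against 0.508 in Mybx1 at 0 hpf. At 6 hpf it had 47.2 FPKM in WT against 0.614 in Mybx1, 76.9-fold lower (32.7 to 238). The germline cap-binding gene eif4e1b had 26.7 FPKM in WT against 69.5 in Mybx1, 2.6-fold higher (1.99 to 3.42). Nucleolar protein genes and hosts of small nucleolar RNAs were lower in 7 of 12 cases and higher in 0, with a median of -1.23. The nucleophosmin gene npm1a had 777 FPKM in WT against 178 in Mybx1, 4.37-fold lower (4.12 to 4.64). The ribonucleoprotein gene nop56 had 649.9 FPKM in WT against 168 in Mybx1, 3.86-fold lower (3.62 to 4.12). The fibrillarin gene fbl was within 2-fold, with 722 FPKM in WT against 450.3 in Mybx1.

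Mitochondrial ribosomal protein genes had 24 higher, 41 within 2-fold and 8 lower among 73. Their median of 0.44 was -0.05 relative to all genes and -0.25 with median-ratio scaling. Of the 73 genes 71 were egg transcripts, a class with 47.1% higher and a median of 0.90. For mrpl48 the levels were 37.5 FPKM in WT against 38.4 in Mybx1 at 0 hpf, and 2.34 against 18.8 at 6 hpf, 8.004-fold higher (4.37 to 16.0). For mrpl12 they were 106 FPKM in WT against 117 in Mybx1 at 0 hpf, and 10.9 against 60.01 at 6 hpf, 5.49-fold higher (4.31 to 7.06). The gene mrps22 was low in Mybx1 eggs already, with 41.6 FPKM in WT against 7.27 in Mybx1 at 0 hpf, and 14.4 against 3.32 at 6 hpf, 4.33-fold lower (2.53 to 7.81). Nuclear-encoded respiratory chain genes had 14 higher, 56 within 2-fold and 10 lower, with a median of 0.19, which was -0.54 with median-ratio scaling. Of 13 transcripts of the mitochondrial genome 12 were within 2-fold, with a median of 0.36, which was -0.40 with median-ratio scaling. The other one, MT-ATP6, had 102 FPKM in WT against 216 in Mybx1, 2.11-fold higher (1.88 to 2.37).

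Cell cycle genes lay on both sides of WT, as did all genes counted (38.2% higher, 20.8% lower). Of 41 cyclins, kinases and checkpoint genes 11 were higher, 20 within 2-fold and 10 lower, with a median of 0.22, which was -0.50 with median-ratio scaling. The germline cyclin gene ccna1 had 1351 FPKM in WT against 1107 in Mybx1 at 0 hpf, and 78.0 against 1186 at 6 hpf, 15.2-fold higher (14.1 to 16.5). The oocyte inhibitor kinase gene wee2 had 177 FPKM in WT against 165 in Mybx1 at 0 hpf, and 10.1 against 154 at 6 hpf, 15.1-fold higher (12.3 to 18.7). The mitotic cyclin gene ccnb2 had 153 FPKM in WT against 899 in Mybx1, 5.88-fold higher (5.52 to 6.28). In the other direction, the cyclin gene ccne2 had 1.68 FPKM in WT against 1.67 in Mybx1 at 0 hpf, and 159.8 against 10.1 at 6 hpf, 15.9-fold lower (13.02 to 19.5), and the kinase gene wee1 had 3.84 FPKM in WT against 0.597 in Mybx1 at 0 hpf, and 73.3 against 16.4 at 6 hpf, 4.48-fold lower (3.98 to 5.06). The pair wee2 and wee1 thus stood in opposite order in the 6 hpf libraries.

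In DNA replication 12 of 45 genes were higher and 4 lower, beside 38.2% and 20.8% over all genes. Their median was 0.36, which was -0.39 with median-ratio scaling. The helicase subunit gene mcm3, a zygotic transcript here, had 166 FPKM in WT against 12.6 in Mybx1, 13.1-fold lower (11.5 to 15.1). The topoisomerase gene top2a had 129 FPKM in WT against 21.0 in Mybx1, 6.17-fold lower (5.66 to 6.74). The helicase cofactor gene gins2 had 108 FPKM in WT against 115 in Mybx1 at 0 hpf, and 4.51 against 71.2 at 6 hpf, 15.8-fold higher (10.4 to 24.97). The origin recognition gene orc6 had 127 FPKM in WT against 151 in Mybx1 at 0 hpf, and 19.5 against 186 at 6 hpf, 9.53-fold higher (8.25 to 11.1). Histone genes were 3 higher, 13 within 2-fold and 5 lower among 21, with a median of -0.58. The variant h3f3a had 3715 FPKM in WT against 1128 in Mybx1, 3.29-fold lower (3.19 to 3.4), and h2ax had 3466 FPKM in WT against 1573 in Mybx1, 2.2-fold lower (2.14 to 2.27), whereas the egg forms h2af1al and h1m were higher.

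In nuclear transport 9 genes were higher, 32 within 2-fold and 12 lower among 53, beside 38.2% higher and 20.8% lower over all genes. Their median was -0.18, which was 0.03 with TPM scaling. The importin alpha genes were split. The oocyte form kpna7 had 324 FPKM in WT against 264 in Mybx1 at 0 hpf, and 4.87 against 77.2 at 6 hpf, 15.8-fold higher (11.99 to 21.3). The form kpna3 had 0.529 FPKM in WT against 0.137 in Mybx1 at 0 hpf, and 26.2 against 0.911 at 6 hpf, 28.7-fold lower (18.8 to 46.2). The form kpna1 had 19.5 FPKM in WT against 1.03 in Mybx1, 18.9-fold lower (12.1 to 31.3). The exportin gene xpo1a was low in Mybx1 at both stages, with 164 FPKM in WT against 27.3 in Mybx1 at 0 hpf, and 273 against 29.8 at 6 hpf, 9.14-fold lower (8.44 to 9.92). Core spliceosome genes were 35 within 2-fold, 11 lower and 2 higher among 48, with a median of -0.52. The scaffold gene prpf8 had 54.0 FPKM in WT against 19.8 in Mybx1 at 0 hpf, and 143 against 25.1 at 6 hpf, 5.68-fold lower (5.33 to 6.05). Proteasome genes were 32 within 2-fold, 8 lower and 2 higher among 42, with a median of -0.44.

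Few markers of other tissues that a sample could hold reached the minimum level. Of 8 blood genes 2 were counted, cahz with 15.4 FPKM in WT against 0.191 in Mybx1, 80.9-fold lower (22.03 to 673), and lmo2 with 7.99 FPKM in WT against 1.38 in Mybx1, 5.81-fold lower (3.34 to 10.8). The 8 summed to 24.8 FPKM in WT and 3.02 in Mybx1, with the globin gene hbae3 at 0 in both. Of 12 liver genes 2 were counted, tfa with 93.0 FPKM in WT against 3.09 in Mybx1, 30.1-fold lower (17.4 to 57.0), and apoa2 with 5.75 FPKM in WT against 0 in Mybx1, at least 2.58-fold lower, for a sum of 100.2 against 4.95 FPKM. Of 6 muscle genes ckma was counted, with 0.405 FPKM in WT against 1.88 in Mybx1, 4.65-fold higher (1.53 to 18.9), for a sum of 2.14 against 3.43 FPKM and myog at 0 in both.

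Of 8 ovarian follicle genes 1 was counted, the steroid enzyme gene cyp17a1, an egg transcript with 48.8 FPKM in WT against 82.5 in Mybx1 at 0 hpf, and 1.66 against 74.97 at 6 hpf, 45.2-fold higher (31.3 to 67.7). The star gene was at 0 in all 4 libraries, and amh, gsdf and fshr were at 0.247 FPKM or less at 6 hpf. The inhibin gene inha, below the minimum level to be counted, had 1.44 FPKM in WT against 0.135 in Mybx1, 10.7-fold (1.55 to 458) lower. The sum of the 8 was 3.51 FPKM in WT and 75.6 in Mybx1. Of 13 testis genes 5 were counted and 3 were higher, for a sum of 9.22 against 57.1 FPKM, with tekt2 at 0 in both. Of these, spata18 had 6.63 FPKM in WT against 56.8 in Mybx1 at 0 hpf, and 0.383 against 44.4 at 6 hpf, 116-fold higher (39.4 to 565). The part of these markers in the other results was not tested.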

How the data were processed

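Total RNA of whole zebrafish embryos was sequenced in 4 libraries, 1 in each of 4 groups. Per the labels' protocols, RNA was taken up in Trizol, treated with DNase I, cleaned on RNeasy columns, depleted with Ribo-zero and made into libraries with a NEBNext kit. The authors deposited FPKM values for 31870 gene identifiers. Tools and build are listed without roles in the submitters' processing notes, as HTSeq 0.6.1, TopHat2 2.0.12, Bowtie2 2.2.3 and GRCz10. The FPKM formula, annotation release, strand handling and treatment of multiply mapped reads are not given in the sources used here. Antisense overlaps and near-identical copies could not be told apart. FPKM are shares of a library, and a change in total RNA leaves no trace in them.

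Differences were computed on log2(FPKM + 1) with Python 3.11.15, pandas 2.3.3, numpy 2.4.6 and scipy 1.17.1, and figures were drawn with matplotlib 3.10.9. With 1 library per group no p-value was computed. Library totals were recovered from the steps of low FPKM values. At these totals 95.2% of 3705 genes had a gene length whole to within 0.01, against 46.3% at 2 times the totals. For each gene the smallest whole reads that give all 4 values were taken as lower limits of its reads. They add up to 88.8% to 93.3% of the totals. Intervals come from these reads. A gene with 0 reads in a library was set against the FPKM of 3 reads there, which bounds the fold without the counting error of the other library. The recovery was tested on simulated data.

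Symbols were found for 26099 identifiers (81.9%), in the RefSeq spelling of assembly GRCz12tu where it has them. Capitals mark human-form symbols, and 4274 identifiers share a symbol. The members and the 43 gene lists were chosen with earlier results of these data known. Named genes are ybx1, then the 8 genes furthest apart in each direction among egg and among zygotic transcripts with mean FPKM of at least 5 and a symbol of their own, and 3 each way in between. From each list all matched members were eligible up to 8, and otherwise the 4 highest and 4 lowest counted. Promoter motifs were planned and not analysed here, and some genes that the rule names are not reported here. Alternatives were other pseudocounts, filters, scalings, thresholds and class limits.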

Additional observations from a re-analysis of the deposited data

Results flagged for a closer look

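Among the named genes, 11 were at least 2-fold lower in Mybx1 at 6 hpf and at least 2-fold higher in Mybx1 at 0 hpf. The 6 hpf and the 0 hpf libraries are different samples, 1 per group, and the difference between the stages was not tested. On the log2(FPKM + 1) scale, HSP90AA1 went from 1.45 at 0 hpf to -6.81 at 6 hpf. The small heat shock gene hspb1 had 1.05 and -4.79 in the same order. The ETS factor gene etv4 had 1.34 and -3.95, and the Wnt ligand gene wnt11f2 had 1.13 and -2.51. At 0 hpf HSP90AA1, hspb1, etv4 and wnt11f2 stood low, at 0 to 1.12 FPKM in WT and 1.07 to 4.79 in Mybx1. The nucleosome-binding gene hmgn1b had 1.69 and -3.89, and si:ch211-222l21.1 had 1.51 and -3.57. For mych, a Myc family gene, the values were 2.05 and -2.05, and for igf2bp1, an mRNA-binding protein gene, 1.28 and -2.14. The retinoic acid degrading enzyme gene cyp26a1 had 3.11 and -1.45, and the splicing gene snrpf had 1.12 and -2.02. The entry dre-mir-15b had 1.02 and -3.82, at a depth of few reads. Over all counted genes this order was seen in 150 and the reverse order in 93.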

How the results depend on the processing

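The counts of genes past 2-fold were repeated under other settings. These settings could not change the direction of a named gene past 2-fold. With a pseudocount of 5, 3863 genes were higher and 1991 lower, with 62 and 683 zygotic transcripts. Medians of groups low in Mybx1 also depended on the pseudocount. With 0.1 and 5, the FGF median was -4.26 and -1.69 and the organizer median -3.99 and -1.78. The mesoderm median was -4.84 and -2.36 in the same order. A mean FPKM of at least 5 gave 2085 lower genes, and 54 higher and 590 lower zygotic transcripts. Without a filter 407 zygotic transcripts were higher, and with TPM scaling 441. Median-ratio scaling gave 3946 higher and 5398 lower genes, and 2866 higher and 1998 lower egg transcripts. At 4-fold, 2632 genes were higher and 1362 lower, of which 2153 and 206 were egg and 75 and 744 zygotic transcripts. With egg at 1 FPKM or more and zygotic below 0.5, 1435 egg transcripts were lower. With egg at 10 or more and zygotic at 0, 94 zygotic transcripts were higher and 559 lower, and with the 0 hpf level of WT alone 581 were higher. The median-ratio scaling of the egg transcripts' remaining level, added after seeing the data, gave a median of 70.26% in WT, with 1992 at 25% or less and 1718 at 2 times or more of the egg level. The scalings multiply all FPKM of a library by 1 factor. For the other settings the cause was not tested. No paired analysis was possible because each group has 1 library, and no replicate could be left out. Genes of few reads, such as the microRNA entries with a median of 2 reads in WT, are limited by depth.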

Other observations

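Zinc finger genes with znf symbols were lower in Mybx1 at 6 hpf in 74 and higher in 29 of 197 counted cases (264 matched). Over all genes 20.8% were lower and 38.2% higher. The median of the znf genes was -0.61 on the log2(FPKM + 1) scale. The zygotic znf1063 had 27.9 FPKM in WT against 3.51 in Mybx1, 7.96-fold lower (5.62 to 11.6). The maternal znf326 had 89.6 FPKM in WT against 109.8 in Mybx1 at 0 hpf, and 8.36 against 117 at 6 hpf, 14.05-fold higher (11.1 to 18.1). The gene znf1035 was low in Mybx1 at both stages, with 49.1 FPKM in WT against 0.491 in Mybx1 at 0 hpf, and 38.6 against 1.74 at 6 hpf. Genes of mTORC1 and its 4E-BP targets were 7 higher, 12 within 2-fold and 1 lower among 20, with a median of 0.62 that was -0.10 with median-ratio scaling. The GTPase gene rheb, which activates mTORC1, had 3.47 FPKM in WT against 19.8 in Mybx1, 5.7-fold higher (3.56 to 9.56), and eif4ebp2, a repressor of cap-dependent translation, had 17.8 FPKM in WT against 63.5 in Mybx1, 3.57-fold higher (3.14 to 4.05). Steroid synthesis genes were 2 higher and 4 within 2-fold among 6 counted (14 matched), with a median of 0.43 that was -0.32 with median-ratio scaling. Beside cyp17a1, the higher one was its paralog cyp17a2 at 4.9 FPKM in WT against 24.8 in Mybx1, 5.05-fold higher (3.35 to 7.88).

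The most abundant entries at 6 hpf were small noncoding RNAs. The level of rn7sk, which holds the elongation factor P-TEFb inactive, was 244 FPKM in WT against 77.8 in Mybx1 at 0 hpf, and 23621 against 8238 at 6 hpf. That of rmrp, the RNA of RNase MRP, was 20009 against 13293 FPKM at 6 hpf, that of RNaseP_nuc was 13041 against 7873, and that of rpph1, the RNA of RNase P, was 9476 and 5229. Of 254 microRNA entries 37 were counted, 25 lower, 7 within 2-fold and 5 higher. Their reads were a median of 2 and at most 11 in WT and at most 5 in Mybx1.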
